A study of Homo sapiens with 6 samples.

Results

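The genes described here are 31 genes of cholesterol synthesis, its control by SREBP and the handling of cholesterol, chosen by name from the 21776 genes of the deposited count table. All 31 were found in the table, and all 31 were among the 14255 genes that passed the filter on low counts. They were measured by RNA sequencing in SCC25, an established line of human oral squamous cell carcinoma with the genotype given as WT. Of the 6 libraries, 3 came from cells kept for 12 h under hypoxia (1% O2 with 5% CO2 and nitrogen) and 3 from cells kept for 12 h under normoxia (air with 5% CO2). Both conditions shared the medium, DMEM/F12 with fetal bovine serum and antibiotics. The labels give SCC25, while the study names SCC9 for the same comparison, and the conditions rest on 1 cell line and 1 time of exposure. Nothing in the labels says that the replicates came from separate cultures, so p-values measure the spread between these libraries, which may be technical.

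The total counts were 30186813, 36076088 and 32272716 in the hypoxia libraries and 37278703, 29637189 and 29981208 in the normoxia libraries. As a check of the labels, VEGFA, a ligand of blood vessel growth that responds to hypoxia, was listed at 320.3, 358 and 348 FPKM under hypoxia and 47.3, 42.7 and 53.2 FPKM under normoxia. CA9, a carbonic anhydrase used as a hypoxia marker, was listed at 171, 185 and 190.3 FPKM against 20.8, 17.0 and 43.2 FPKM. For both genes the conditions did not overlap, which by normalized counts held for 80.5% of all genes tested. Of 9 markers of oral squamous epithelium, 8 were tested, of which 5 were higher under hypoxia, 2 were lower and 1 did not pass the test, with a median log2-fold change of 1.01. The higher ones were TRIM29 (log2-fold change 1.46), PKP1 (1.21) and the desmosomal cadherins DSG3 (1.35) and DSC3 (0.96), and the keratin KRT17 (1.06). TRIM29 had 63.1 ± 4.47 FPKM under hypoxia against 22.2 ± 1.77 (SD, n = 3 each). The lower ones were SFN, or stratifin, the most abundant of the list by FPKM, with 93.5 ± 5.35 against 157.6 ± 2.01 FPKM, and the basal keratin KRT5, with 50.4 ± 1.94 against 55.4 ± 4.47 FPKM (SD, n = 3 each). KRT14, the usual partner of KRT5, had 1 count in 1 of the 6 libraries. Of 12 markers of other cell types, 4 were tested, of which 2 were higher, 0 were lower and 2 did not pass the test. COL1A1, a collagen chain of fibroblasts, was higher, with 3.08 ± 0.354 against 0.624 ± 0.199 FPKM (SD, n = 3 each; log2-fold change 2.26, SE 0.16, adjusted p = 1.02e-09 by edgeR), while COL1A2, its partner chain, had at most 9 counts and COL3A1 at most 2 in any library. CDH5, an endothelial cadherin, was higher at few counts, 32, 28 and 34 against 9, 9 and 22 (log2-fold change 1.14, SE 0.44, adjusted p = 0.025 by edgeR), and lost its call in 4 of the 6 fits without a library. CDH5 was not tested when at least 10 counts were required in every library. VWF, of endothelial cells, had 10, 9 and 4 counts under hypoxia and 0 in each normoxia library. PTPRC and CD3E of leukocytes had at most 2 counts in any library. CD68, a lysosomal protein of macrophages that other cells also express, was the most abundant of these markers by FPKM and did not pass the test, and neither did PDGFRB of pericytes and fibroblasts (log2-fold change 0.96, adjusted p = 0.0507 by edgeR). The summed CPM of the squamous markers was 688.1 ± 9.82 under hypoxia and 555.1 ± 35.5 under normoxia, and that of the markers of other cell types was 51.3 ± 1.17 and 37.7 ± 2.62 (SD, n = 3 each). Both sums were higher under hypoxia, and their part in the results was not tested. The rise in the sum of other cell types came from COL1A1, at 17.97 ± 2.02 CPM under hypoxia and 3.76 ± 1.17 under normoxia. CD68, the most abundant, had 30.99 ± 3.36 and 33.05 ± 1.06 CPM (SD, n = 3 each). Of all 14255 genes tested, 39.2% were called higher and 38.5% lower.

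Cholesterol is built from acetyl-CoA. The mevalonate steps lead to farnesyl diphosphate, which feeds squalene and the sterols as well as dolichol, ubiquinone and protein prenylation. Several sterol steps consume molecular oxygen. SREBP transcription factors switch these genes on when sterols in the endoplasmic reticulum are low: SCAP escorts SREBP to the Golgi for cleavage, and INSIG proteins hold the complex back when sterols are plentiful.

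Under hypoxia, the transcripts of these 31 members were mostly higher. With a threshold of 0.05 on p-values from edgeR's quasi-likelihood test, adjusted by Benjamini-Hochberg over all 14255 genes, 26 of the 31 members were higher, 3 were lower and 2 did not pass the test. By the same rule 77.8% of the 14255 genes were called, 39.2% as higher and 38.5% as lower. The share of members called higher was 83.9%, against this background of 39.2%. The members were chosen with earlier results of these data known. The contrast therefore describes them and does not test whether they are unusual. A log2-fold change of at least 1 was reached upward by 12 members and downward by 0, against 19.9% and 10.5% of all genes. The members had a median log2-fold change of 0.79, and the 14255 genes one of 0.02. By normalized counts the conditions did not overlap in 26 members that were higher and in 3 that were lower, where 80.5% of all genes did not overlap, 40.6% higher and 39.9% lower. RNA sequencing gives levels relative to all transcripts, so a change in these transcripts cannot be told apart from a change in the rest, nor fewer cells of a type from less RNA per cell.

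**Figure D1:**
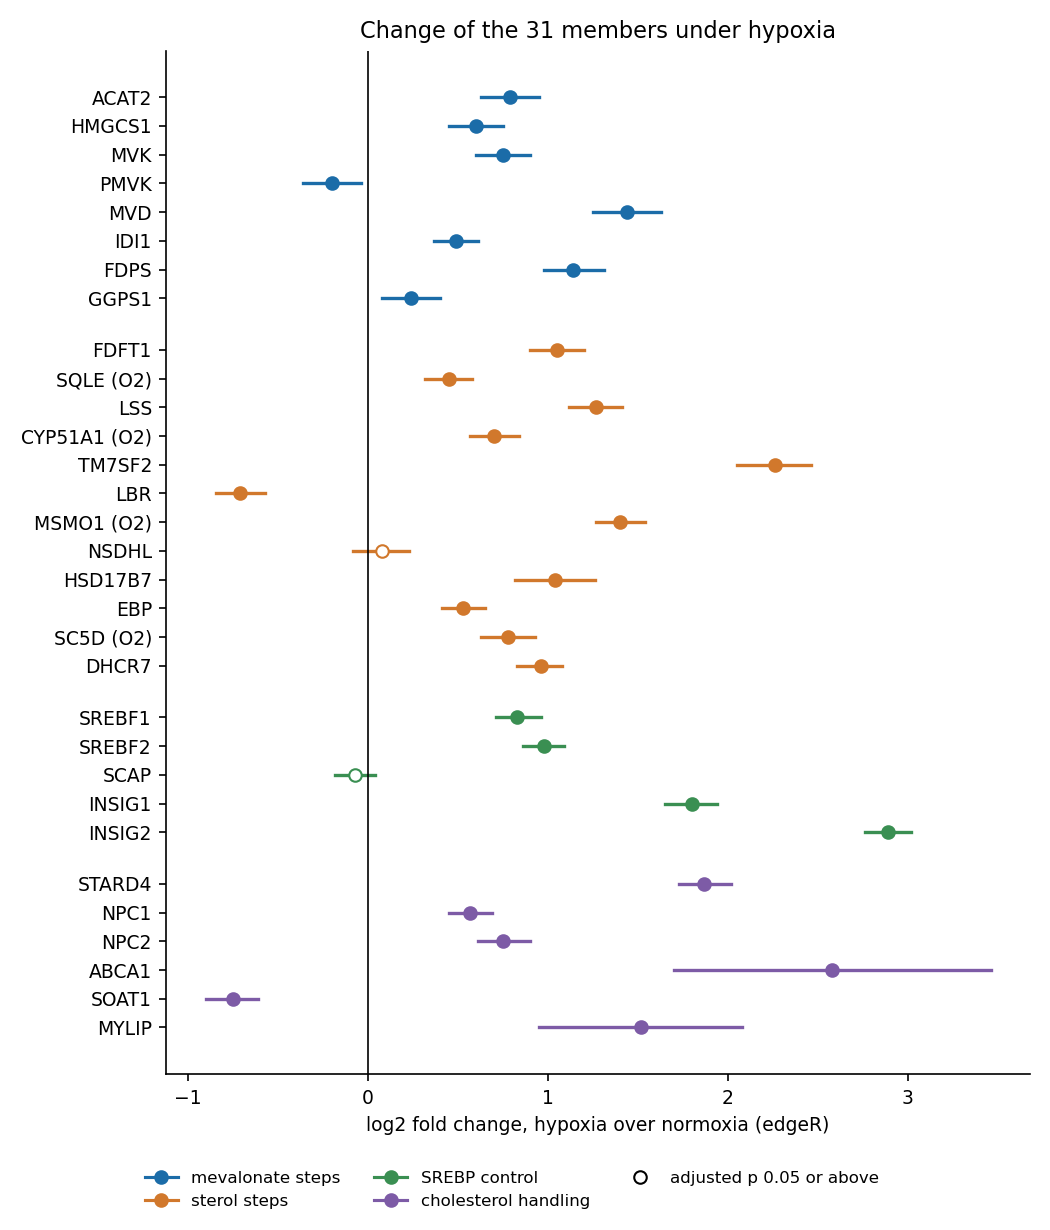
Log2-fold change under hypoxia (x axis, edgeR, no unit) of the 31 members, ordered by pathway step and coloured by role; points are estimates, lines are 95% confidence intervals, open points had an adjusted p of 0.05 or above and O2 marks the enzymes that use oxygen. The points run from -0.75 for SOAT1 to 2.89 for INSIG2, and 26 filled points lie to the right of 0.

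The members took up a larger part of the reads under hypoxia. Their summed normalized counts were 7530, 6646 and 7040.0 CPM (counts scaled to the adjusted library total) under hypoxia and 3813, 3748 and 4232 CPM under normoxia, a ratio of 1.80. As a share of all reads this was 0.762%, 0.685% and 0.708% against 0.381%, 0.362% and 0.418%. The conditions did not overlap in this sum.

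Per length, in FPKM as deposited, the members spanned a wide range. FDPS was the highest on average, at 364.6 ± 35 FPKM under hypoxia and 159.8 ± 19.4 FPKM under normoxia (SD, n = 3 each). ABCA1 was the lowest, at 0.141 ± 0.0104 and 0.0221 ± 0.011 FPKM (SD, n = 3 each). A mean above 100 FPKM was reached by 10 of the 31 members under hypoxia and by 4 under normoxia, and 2 members, ABCA1 and MYLIP, had a mean under 1 FPKM under normoxia.

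**Figure D2:**
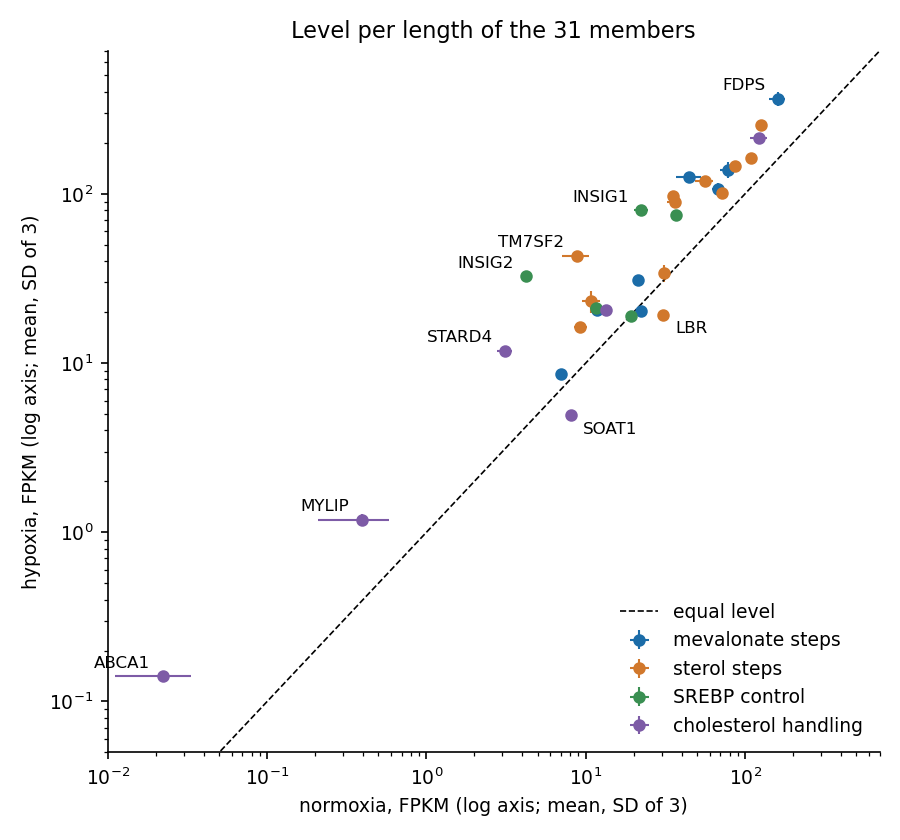
Mean level of each of the 31 members in FPKM under normoxia (x axis) and hypoxia (y axis), both on log axes, with SD over 3 libraries as bars and colours by role. Points above the dashed line are higher under hypoxia; LBR (30.45 FPKM under normoxia, 19.3 under hypoxia) and SOAT1 (8.02 and 4.91) lie clearly below it.

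The mevalonate steps were covered by 8 members, with a median log2-fold change of 0.68. Of these, 7 were higher (87.5%, against 39.2% of all genes tested) and 1 was lower (12.5%, against 38.5%). MVD, the decarboxylase that makes isopentenyl diphosphate, was listed at 136, 118 and 123 FPKM under hypoxia and 41.4, 39.3 and 53.7 FPKM under normoxia. It had the largest change of these 8, 1.44 on the log2 scale (standard error, SE, 0.089, adjusted p = 1.22e-10 by edgeR). FDPS, which makes farnesyl diphosphate, was listed at 400.3, 330.3 and 363 FPKM against 154, 144 and 181 FPKM, a log2-fold change of 1.14 (SE 0.079). In both genes the conditions were well separated, and the lowest hypoxia library was above the highest normoxia library.

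Smaller increases were measured for the thiolase ACAT2 at the entry of the pathway (log2-fold change 0.79, SE 0.077), the mevalonate kinase MVK (0.75, SE 0.071), the synthase HMGCS1 (0.60, SE 0.070) and the isomerase IDI1 (0.49, SE 0.058). HMGCS1 was listed at 117, 97.6 and 105 FPKM under hypoxia and 68.2, 61.8 and 73.9 FPKM under normoxia. GGPS1, which makes geranylgeranyl diphosphate outside the sterol branch, had a log2-fold change of 0.24 (SE 0.074, adjusted p = 0.00762 by edgeR), and without normoxia replicate 1 it was 0.16 with an adjusted p of 0.0824. PMVK, the phosphomevalonate kinase, was the exception in direction: 20.6, 20.3 and 19.5 FPKM under hypoxia against 23.1, 20.4 and 23.6 FPKM. In FPKM the conditions of PMVK overlapped slightly, and after normalization they did not. Its log2-fold change was -0.20 (SE 0.075, adjusted p = 0.0254 by edgeR), and the call was lost without hypoxia replicate 2 or 3 (adjusted p = 0.052 and 0.0721) and without normoxia replicate 1 or 3 (adjusted p = 0.0605 and 0.0522, all by edgeR).

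From squalene to cholesterol there were 12 members, with a median log2-fold change of 0.87. Of these, 10 were higher (83.3%, against 39.2% of all genes tested), 1 was lower (8.33%, against 38.5%) and 1 did not pass the test. FDFT1, the squalene synthase at the branch point, was listed at 124, 114 and 118.5 FPKM under hypoxia and 53.9, 49.4 and 63.5 FPKM under normoxia (log2-fold change 1.05, SE 0.072). LSS, which closes the ring to lanosterol, had a log2-fold change of 1.27 (SE 0.071), and HSD17B7, a ketosteroid reductase of the demethylation steps, one of 1.04 (SE 0.10). DHCR7, a reductase at the end of the pathway, was the second most abundant member by FPKM at 269.6, 241 and 252 FPKM against 123, 121.5 and 136 FPKM, a log2-fold change of 0.96 (SE 0.060, adjusted p = 1.24e-10 by edgeR). EBP, the sterol isomerase, rose less, from 108.8 ± 3.86 to 162.5 ± 8.50 FPKM (SD, n = 3 each; log2-fold change 0.53, SE 0.056). NSDHL, the dehydrogenase that removes the methyl groups together with MSMO1 and HSD17B7, did not pass the test, with 38.3, 30.8 and 32.8 FPKM under hypoxia and 32.6, 30.4 and 30.3 FPKM under normoxia. The interval of its log2-fold change ran from -0.08 to 0.23, and hypoxia replicate 1 alone lay above all normoxia libraries by a margin.

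The 4 enzymes that use molecular oxygen were all higher, where 39.2% of all genes tested were. MSMO1, the methylsterol monooxygenase, was listed at 103, 91.8 and 94.9 FPKM under hypoxia and 34.3, 33.9 and 38.2 FPKM under normoxia, a log2 difference of 1.40 (SE 0.064, adjusted p = 2.55e-12 by edgeR). SC5D, a sterol desaturase, had a log2-fold change of 0.78 (SE 0.069), CYP51A1, the lanosterol demethylase, one of 0.70 (SE 0.063), and SQLE, the squalene epoxidase, one of 0.45 (SE 0.060). SQLE was listed at 108, 94.9 and 100.1 FPKM against 72.6, 67.0 and 75.4 FPKM. The median log2-fold change of these 4 was 0.74, beside 0.77 for the 16 enzymes without this requirement, of which 13 were higher and 2 lower. No difference between these groups was tested.

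TM7SF2 and LBR encode sterol reductases of the same step, after CYP51A1, and they moved in opposite directions. TM7SF2 was listed at 44.9, 41.6 and 42.8 FPKM under hypoxia and 8.13, 7.48 and 10.6 FPKM under normoxia, the largest change among the 20 enzymes of the mevalonate and sterol steps (log2-fold change 2.26, SE 0.096, adjusted p = 1.19e-12 by edgeR). LBR, which is also the lamin B receptor of the inner nuclear membrane, was listed at 20.1, 18.2 and 19.6 FPKM against 31.4, 31.8 and 28.2 FPKM (log2-fold change -0.71, SE 0.064, adjusted p = 1.72e-08 by edgeR). TM7SF2 was the more abundant of both in every hypoxia library and LBR in every normoxia library. The ratio of TM7SF2 to LBR in FPKM was 2.24, 2.28 and 2.18 in the hypoxia libraries and 0.259, 0.236 and 0.378 in the normoxia libraries, a difference of 2.97 on the log2 scale (two-sided exact permutation test, p = 0.1, adjusted p = 0.1 over 3 ratios). With 3 libraries against 3, 0.1 is the smallest p this test can give.

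**Figure D3:**
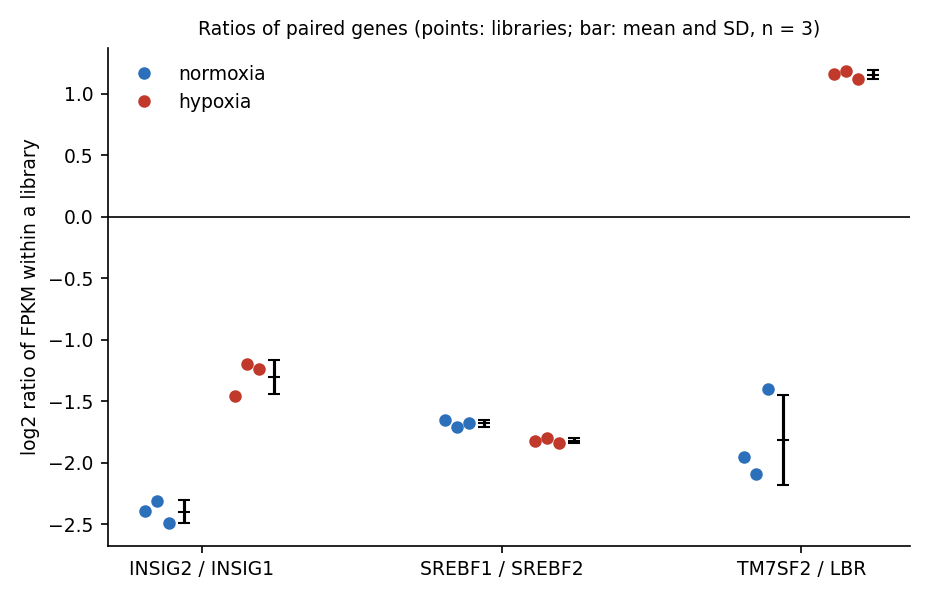
Log2 ratio of the FPKM of paired genes within each library (y axis) for INSIG2 over INSIG1, SREBF1 over SREBF2 and TM7SF2 over LBR; points are libraries, blue for normoxia and red for hypoxia, with mean and SD of 3 as bars. The ratio of TM7SF2 to LBR crosses 0 between the conditions, from a mean of -1.81 to 1.16.

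Among the 5 members that control SREBP, 4 were higher (80%, against 39.2% of all genes tested) and 1 did not pass the test. INSIG2, which holds the SCAP and SREBP complex in the endoplasmic reticulum, had the largest increase of all 31 members. It was listed at 31, 33.1 and 33.4 FPKM under hypoxia and 4.31, 4.05 and 4.35 FPKM under normoxia, a 7.67-fold difference of the means (log2-fold change 2.89, SE 0.063, adjusted p = 1.35e-15 by edgeR). Ordered by log2-fold change, INSIG2 was at position 541 of the 14255 genes. INSIG1, its paralog and itself a known SREBP target, was listed at 85.2, 76.2 and 78.6 FPKM against 22.6, 20.1 and 24.4 FPKM (log2-fold change 1.80, SE 0.068, adjusted p = 2.95e-13 by edgeR). INSIG1 was the more abundant of both genes in every library. The ratio of INSIG2 to INSIG1 in FPKM was 0.364, 0.434 and 0.425 under hypoxia and 0.191, 0.202 and 0.179 under normoxia, a difference of 1.09 on the log2 scale (two-sided exact permutation test, p = 0.1, adjusted p = 0.1).

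SREBF2 encodes the SREBP that mainly drives sterol genes. It was listed at 74.9, 76.7 and 73.5 FPKM under hypoxia and 36.5, 34.6 and 39.7 FPKM under normoxia (log2-fold change 0.98, SE 0.054, adjusted p = 2.90e-11 by edgeR). SREBF1, whose products mainly drive fatty acid genes, was listed at 21.1, 22.0 and 20.5 FPKM against 11.7, 10.6 and 12.4 FPKM (log2-fold change 0.83, SE 0.059). SREBF1 shares 556 bases of exon with RAI1 on the opposite strand in GENCODE v29, a gene with a log2-fold change of 0.94, and whether the counting used the strand is not given in the sources used here. The log2 ratio of SREBF1 to SREBF2 moved by -0.14 under hypoxia, with no overlap between the conditions (two-sided exact permutation test, p = 0.1, adjusted p = 0.1). SCAP, the escort protein, did not pass the test: 19.5, 18.9 and 18.3 FPKM under hypoxia against 19.1, 19.4 and 19.0 FPKM, with an interval of the log2-fold change from -0.18 to 0.04.

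In GENCODE v29, 6 members (ACAT2, GGPS1, MVK, NPC1, SREBF1 and TM7SF2) share exon bases with another gene of at least 10% of their mean count, so reads of these could be split. Among the 25 members left without them, an alternative chosen after seeing the data, 20 were higher and 3 lower. Of all genes tested, 39.2% were higher and 38.5% lower.

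**Figure D4:**
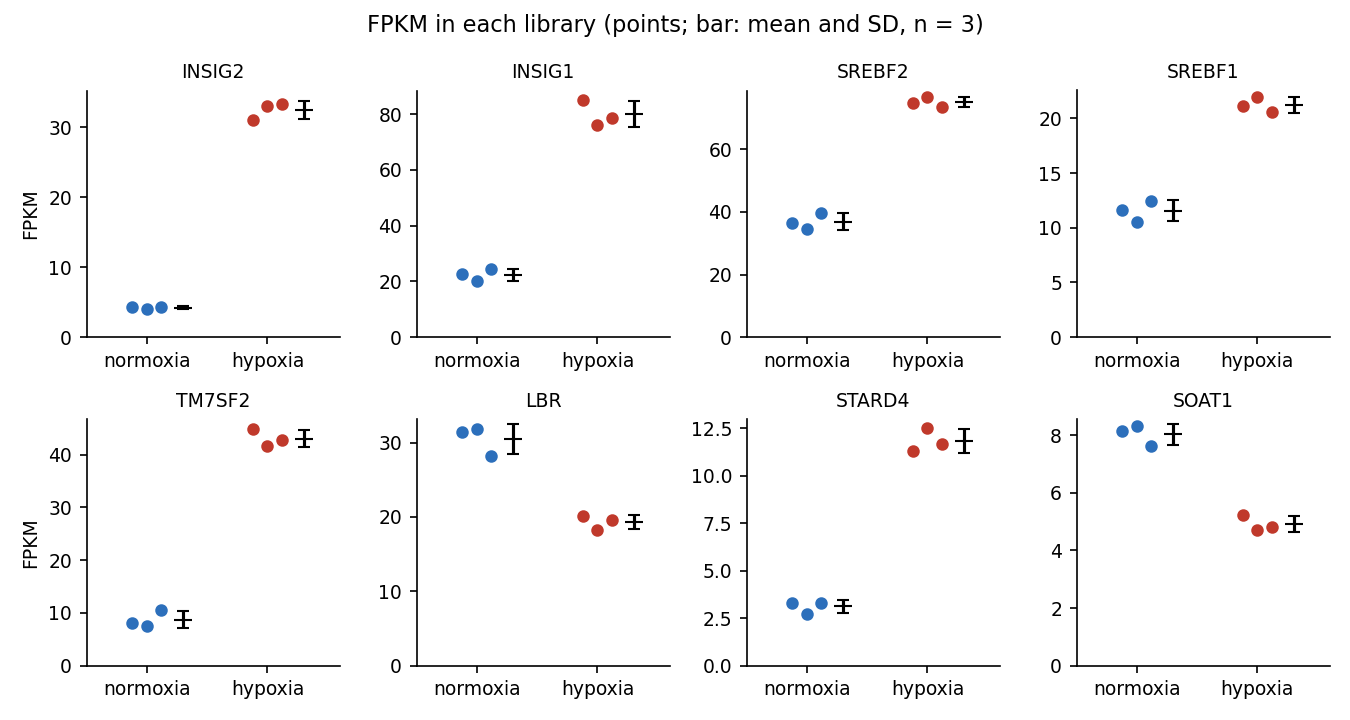
FPKM (y axis, from 0) of 8 members in each of the 6 libraries, with normoxia in blue and hypoxia in red and mean and SD of 3 as bars. INSIG2, INSIG1, SREBF2, SREBF1, TM7SF2 and STARD4 are higher in all hypoxia libraries, and LBR and SOAT1 are lower in all of them.

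The promoters of 28 of the 31 members were at hand from RefSeq (GRCh38.p14; ACAT2, FDFT1 and SQLE were not matched), as windows of 250 bases before and 50 after each start site. They were searched on both strands, counting a gene when any of its windows held the letters. The sterol regulatory element in its classical form, the run in capitals in the SREBF2 promoter shown together with the A before it, was found in 1 of the 28, SREBF2, and in 0.0447% of the 11197 tested genes with a window. A looser form that contains it, TCACNCNAC, was found in 3 (SREBF2, FDPS and HSD17B7), or 10.7%, against 3.25%. The CCAAT box, bound by NF-Y, which acts together with SREBP, was found in 20 of the 28 (71.4%, against 42.8%), and the GC box GGGCGG in 26 (92.9%, against 75.2%). The core of the hypoxia response element, ACGTG, was found in 8 (28.6%, against 31.7%), and the alternative core GCGTG in 21 (75%, against 57.3%). The palindrome CACGTG counts as ACGTG on both strands. These matches describe letters in a window, and no test was made of them.

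The promoters that hold the sterol element forms are shown because they belong to the factor SREBF2 and to enzymes at the branch point and in the demethylation steps, and those of INSIG2, INSIG1 and STARD4 because these genes rose most among the members with the core ACGTG and more than 10 FPKM under hypoxia. Each is the 250 bases before a start site, 5′ to 3′ on the gene's strand, with capitals for TCACNCNAC or for ACGTG in either direction. SREBF2 is at chr22:41832855-41833104 (plus strand), FDPS at chr1:155308616-155308865 (plus), HSD17B7 at chr1:162790452-162790701 (plus), INSIG2 at chr2:118088221-118088470 (plus), INSIG1 at chr7:155297628-155297877 (plus) and STARD4 at chr5:111512536-111512785 (minus).
SREBF2: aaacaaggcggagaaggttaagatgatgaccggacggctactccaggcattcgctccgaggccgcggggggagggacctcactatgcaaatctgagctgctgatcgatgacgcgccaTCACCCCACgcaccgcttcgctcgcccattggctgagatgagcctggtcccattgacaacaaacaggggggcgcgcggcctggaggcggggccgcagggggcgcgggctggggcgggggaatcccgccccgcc
FDPS: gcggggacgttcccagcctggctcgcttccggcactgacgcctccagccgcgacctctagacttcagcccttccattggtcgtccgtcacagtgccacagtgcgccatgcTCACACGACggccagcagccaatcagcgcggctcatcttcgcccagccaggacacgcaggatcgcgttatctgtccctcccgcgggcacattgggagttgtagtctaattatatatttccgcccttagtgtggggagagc
HSD17B7: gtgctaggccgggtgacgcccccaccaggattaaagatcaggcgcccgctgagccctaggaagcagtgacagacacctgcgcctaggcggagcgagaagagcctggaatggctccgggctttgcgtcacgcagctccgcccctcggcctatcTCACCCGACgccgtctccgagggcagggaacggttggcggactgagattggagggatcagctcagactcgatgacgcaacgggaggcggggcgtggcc
INSIG2: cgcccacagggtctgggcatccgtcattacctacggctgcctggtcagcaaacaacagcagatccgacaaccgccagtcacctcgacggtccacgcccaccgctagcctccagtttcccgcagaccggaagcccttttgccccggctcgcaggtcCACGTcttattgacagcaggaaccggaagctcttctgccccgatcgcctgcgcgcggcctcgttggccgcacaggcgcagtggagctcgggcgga
INSIG1: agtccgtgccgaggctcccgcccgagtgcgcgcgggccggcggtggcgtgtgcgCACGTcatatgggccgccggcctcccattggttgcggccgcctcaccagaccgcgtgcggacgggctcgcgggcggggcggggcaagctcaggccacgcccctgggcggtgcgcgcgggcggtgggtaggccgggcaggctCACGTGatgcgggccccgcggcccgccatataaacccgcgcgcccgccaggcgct
STARD4: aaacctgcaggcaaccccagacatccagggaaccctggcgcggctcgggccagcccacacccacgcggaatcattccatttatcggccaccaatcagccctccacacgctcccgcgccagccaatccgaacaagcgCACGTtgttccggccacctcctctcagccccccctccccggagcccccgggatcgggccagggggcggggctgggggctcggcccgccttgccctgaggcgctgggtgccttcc
In INSIG1, 1 of the marked runs is the palindrome CACGTG.

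Of the 6 members that handle cholesterol once it is made or taken up, 5 were higher and 1 was lower. This was 83.3% and 16.7%, against 39.2% and 38.5% of all genes tested. STARD4, which carries sterol between membranes, was listed at 11.3, 12.5 and 11.7 FPKM under hypoxia and 3.31, 2.73 and 3.32 FPKM under normoxia (log2-fold change 1.87, SE 0.068, adjusted p = 2.08e-13 by edgeR). NPC1 and NPC2, which together export cholesterol from the lysosome, rose less. NPC1 went from 13.5 ± 0.872 to 20.7 ± 0.214 FPKM (SD, n = 3 each; log2-fold change 0.57, SE 0.055), and NPC2 from 123 ± 14.8 to 213 ± 4.95 FPKM (SD, n = 3 each; log2-fold change 0.75, SE 0.069). SOAT1, the enzyme that esterifies cholesterol for storage, had the largest decrease of the 31: 5.21, 4.72 and 4.81 FPKM under hypoxia against 8.13, 8.31 and 7.63 FPKM (log2-fold change -0.75, SE 0.066, adjusted p = 1.23e-08 by edgeR).

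ABCA1 and MYLIP, both known targets of the sterol-sensing LXR receptors, were scarce. ABCA1, a cholesterol exporter, had 48, 51 and 45 counts under hypoxia and 12, 3 and 8 under normoxia (log2-fold change 2.58, interval from 1.70 to 3.46, adjusted p = 2.34e-05 by edgeR). In CPM this was 1.57, 1.37 and 1.39 against 0.32, 0.10 and 0.27, so its call rests on very low normoxia levels. ABCA1 is included in the 26 higher members and in the 12 with a log2-fold change of at least 1. The stricter count filter left ABCA1 untested, and 25 members were then higher. MYLIP, a ubiquitin ligase that lowers lipoprotein receptors, had 110, 151 and 117 counts against 73, 26 and 29 (log2-fold change 1.52, interval from 0.95 to 2.08, adjusted p = 6.13e-05 by edgeR). Neither gene overlapped between the conditions, where 80.5% of all genes tested did not, and their intervals were the widest of the 31 members.

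Within a condition the enzymes moved together from library to library. Of the 20 enzymes of the mevalonate and sterol steps, 19 had their highest CPM among the hypoxia libraries in replicate 1, and 19 had their lowest in replicate 2. Over all genes tested, 36.2% were highest in replicate 1 and 38.0% lowest in replicate 2. In normoxia, 18 of the 20 were highest in replicate 3, where 37.2% of all genes tested were. The summed CPM of the enzymes was 5797, 4952 and 5328 under hypoxia and 2947, 2890.0 and 3280.0 under normoxia. The members are therefore not 31 separate measurements of the condition, although the spread within a condition was smaller than the gap between conditions.

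The other genes of the pathway were read from 5 lists beside the members. Each list stands beside all genes tested, of which 39.2% were higher and 38.5% lower. The machinery that processes SREBP and degrades sterol-regulated proteins had more genes lower than higher. Of 15 genes, 4 were higher (26.7%), 10 lower (66.7%) and 1 did not pass the test, with a median log2-fold change of -0.45. PAQR3, a Golgi protein that tethers SCAP and SREBP, had a log2-fold change of -1.02 (SE 0.12). AUP1, which recruits the ubiquitin machinery in the endoplasmic reticulum, had the highest FPKM of the list under normoxia and in the mean over the 6 libraries, but not under hypoxia, at 67.6 ± 1.01 against 107.8 ± 7.17 FPKM (SD, n = 3 each; log2-fold change -0.72, SE 0.059).

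The genes of the branches that leave farnesyl diphosphate for dolichol, ubiquinone and prenylated proteins were mostly lower. Of 12 genes, 2 were higher (16.7%, against 39.2% of all genes tested) and 10 lower (83.3%, against 38.5%), with a median log2-fold change of -0.81. PDSS1, which makes the side chain of ubiquinone, was listed at 1.43, 1.29 and 1.68 FPKM under hypoxia and 6.26, 6.42 and 5.21 FPKM under normoxia (log2-fold change -2.07, SE 0.12, adjusted p = 6.49e-11 by edgeR). DOLK, the dolichol kinase, had a log2-fold change of -1.67 (SE 0.098), and COQ2, which joins the side chain to the ubiquinone ring, one of -1.03 (SE 0.094). RABGGTB, a subunit of the enzyme that prenylates Rab proteins, had the highest FPKM of this list in the mean over the 6 libraries, though not under hypoxia, where FNTA was above it, at 30.5, 26.9 and 27.1 FPKM against 59.8, 62.1 and 51.6 FPKM (log2-fold change -1.09, SE 0.076). The conditions did not overlap in any of these 4 genes, named for size or level, where 80.5% of all genes tested did not overlap, 39.9% as lower. The 2 that were higher were FNTA, a subunit shared by enzymes that prenylate proteins (log2-fold change 0.52), and SRD5A3, which makes dolichol (0.34), both named after their values were seen, and 1 of them was left without hypoxia replicate 3 or without normoxia replicate 2.

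Of 17 SREBP target genes that serve mainly fatty acid synthesis and desaturation, 9 were higher, 3 were lower and 5 did not pass the test. This was 52.9% higher and 17.6% lower, against 39.2% and 38.5% of all genes tested, with a median log2-fold change of 0.25. SCD, the desaturase that uses oxygen to make oleate, was listed at 716, 701 and 708 FPKM under hypoxia and 159, 151 and 184 FPKM under normoxia (log2-fold change 2.06, SE 0.065, adjusted p = 4.21e-14 by edgeR). ACSS2, which makes acetyl-CoA from acetate, was listed at 92.3, 80.4 and 77.9 FPKM against 17.6, 16.7 and 21.3 FPKM (log2-fold change 2.13, SE 0.083). LPIN1, a phosphatidate phosphatase (1.04, SE 0.070), and ACSL3, which activates long fatty acids (1.02, SE 0.061), also reached a log2-fold change of 1.

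Of 17 genes of sterol uptake, transport and storage, 14 were tested, of which 8 were higher, 2 were lower and 4 did not pass the test. This was 57.1% higher and 14.3% lower, against 39.2% and 38.5% of all genes tested, with a median log2-fold change of 0.34. NCEH1, which hydrolyses cholesteryl esters, was listed at 7.85, 8.46 and 7.21 FPKM under hypoxia and 22.1, 24.0 and 21.2 FPKM under normoxia (log2-fold change -1.56, SE 0.069). LRP8, a lipoprotein receptor of the low density family, was likewise lower (-1.54, SE 0.066). GRAMD1C, a sterol transfer protein, rose from 0.203 ± 0.108 to 1.12 ± 0.187 FPKM (SD, n = 3 each; log2-fold change 2.45, SE 0.29). STARD5, a relative of STARD4, was scarce (log2-fold change 1.20, SE 0.35) and lost its call without hypoxia replicate 2 (0.90, adjusted p = 0.0548 by edgeR). CAV1, the main protein of caveolae, was the most abundant of the list by FPKM at 287 ± 3.26 against 167 ± 17.3 FPKM (SD, n = 3 each; log2-fold change 0.73, SE 0.064).

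Of 13 LXR receptors, LXR targets and oxysterol enzymes, 8 were tested, of which 5 were higher, 1 was lower and 2 did not pass the test. This was 62.5% higher and 12.5% lower, against 39.2% and 38.5% of all genes tested, with a median log2-fold change of 0.84. CYP27A1, which makes an oxysterol from cholesterol, had the largest change of this list (log2-fold change 2.66, SE 0.49) at a level of 0.41 ± 0.0553 FPKM under hypoxia and 0.059 ± 0.040 FPKM under normoxia (SD, n = 3 each). Its counts were few, 28, 30 and 35 under hypoxia and 9, 2 and 3 under normoxia. CYP27A1 was not tested when at least 10 counts were required in every library. SULT2B1, a sterol sulfotransferase of skin (1.77, SE 0.23), and SMPDL3A, an LXR target (1.42, SE 0.30), were also higher. EBPL, a relative of EBP, was the most abundant of the list by FPKM and did not pass the test (log2-fold change -0.09). Without normoxia replicate 3 it was -0.15 with an adjusted p of 0.0331 (edgeR).

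**Figure D5:**
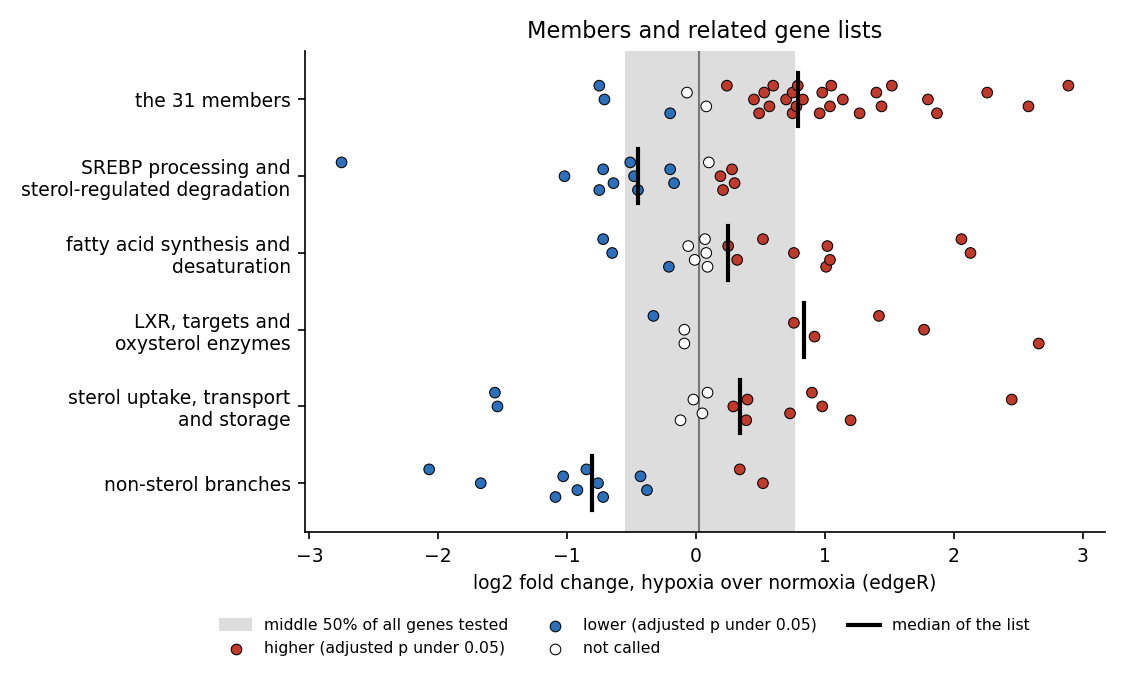
Log2-fold change under hypoxia (x axis, edgeR) of the tested genes of the 31 members and 5 related lists (rows); red points were higher and blue points lower at an adjusted p under 0.05, white points did not pass, black bars are medians, and the grey band holds the middle 50% of all genes tested. The bar of the members is at 0.79 and that of the non-sterol branches at -0.81; the vertical place of points within a row carries no value.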

How the data were processed

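RNA of the 6 SCC25 libraries was made into sequencing libraries with a SMARTER mRNA-Seq kit. The authors deposited raw counts per gene and FPKM values (fragments scaled to gene length and library size); the aligner, the counting tool and its use of strand are not given in the sources used here. The submitters' processing notes list the mouse builds GRCm38 and mm10, whereas 94.5% of the 21776 deposited pairs of symbol and Entrez number match human RefSeq, including all 31 members. Columns of annotation terms in the deposited table were used in the closing section only.

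Counts were filtered with filterByExpr, normalized by TMM and tested with edgeR 4.0.16 in R 4.3.3 (quasi-likelihood F test, 3 hypoxia against 3 normoxia libraries, no covariate, Benjamini-Hochberg adjustment over 14255 genes, threshold 0.05). Standard errors are the log2-fold change divided by the square root of F, and intervals are 95% confidence intervals. Totals between 29637189 and 37278703 counts per library limit the precision of genes with few counts. Levels per length are deposited FPKM values, and ratios within a library were compared with an exact permutation test. DESeq2 1.42.0, limma 3.58.1 on log2(FPKM + 1) and log2(FPKM + 0.1), other filters and leaving out each library were alternatives, and the edgeR steps were tested on simulated data.

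The members and lists were chosen with earlier results of these data known. The text names all members, from each other list at most 4 called genes with an absolute log2-fold change of at least 1 and the largest change (or 2 called genes where none reached 1), the most abundant gene of each list by mean FPKM over the 6 libraries, and VEGFA and CA9, except for items that are not reported here. Outside this rule, the marker lists also name DSC3, KRT5, KRT14, COL1A2, COL3A1, VWF, PTPRC, CD3E and PDGFRB. FNTA and SRD5A3 of the non-sterol branches were likewise named outside it. Shared exons came from GENCODE v29 and promoter windows from RefSeq on GRCh38.p14.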

Additional observations from a re-analysis of the deposited data

How the results depend on the processing

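Of the 31 members, 26 were called higher and 3 lower with edgeR, and 25 to 26 and 2 to 3 under each alternative count test, filter or left-out library. Requiring a log2-fold change of at least 1 as well left 4338 genes of 11090, with 12 members higher and 0 lower. Over the other alternatives the genes called ranged from 9967 (at least 10 counts in every library) to 11920 (no filter), and from 10669 to 11390 when 1 library was left out. Directions turned for 2 members that never passed the test: NSDHL ranged from -0.03 without hypoxia replicate 1 (adjusted p = 0.716 by edgeR) to 0.15 without hypoxia replicate 2, and SCAP was 0.01 with at least 10 counts in every library (adjusted p = 0.882 by edgeR). The cause was not tested. PMVK also lost its call with at least 10 counts in every library (-0.12, adjusted p = 0.159 by edgeR) and in limma fits of FPKM (adjusted p = 0.0507 to 0.097). ABCA1 could not be tested under that count filter, and neither it nor MYLIP in the filtered FPKM fits. The differences in log2 ratio ranged from 1.05 to 1.17 for INSIG2 to INSIG1, from -0.16 to -0.13 for SREBF1 to SREBF2 and from 2.84 to 3.18 for TM7SF2 to LBR when 1 library was left out. Among markers of other cell types, CDH5 (log2-fold change 1.14) lost its call in 4 of the 6 fits without a library (0.82 to 1.06), and the list of LXR and oxysterol genes had 2 lower in place of 1 without normoxia replicate 3.

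With the replicate number as a block, 10875 genes were called, with 26 members higher and 3 lower. Libraries of the same number did not deviate together (correlations of 0.0175, -0.069 and 0.00122 over genes), and hypoxia replicate 1 correlated best with normoxia replicate 2, so the numbers were not taken as a pairing.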

Other observations

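The deposited table carries annotation terms for each gene, which were read after the members' values were seen and are described without a test. Members are counted within these terms, so the counts are not separate from theirs. Of all genes tested, 39.2% were higher and 38.5% lower. The Reactome term Cholesterol biosynthesis was carried by 26 tested genes, of which 22 were members. Of the 26, 20 were higher (76.9%) and 5 lower (19.2%), with a median log2-fold change of 0.73. The Reactome term for activation of gene expression by SREBF was carried by 41 tested genes, of which 16 were members. Of the 41, 28 were higher (68.3%) and 10 lower (24.4%), with a median of 0.50. The Gene Ontology term cholesterol biosynthetic process was carried by 29 tested genes, of which 19 were members. Of the 29, 19 were higher (65.5%) and 8 lower (27.6%), with a median of 0.60. Its lowest log2-fold change, and that of Cholesterol biosynthesis, was -0.90, where the lowest of the members was -0.75. This term had 8 lower genes and all 31 members had 3, so pathway genes outside the members included lower ones.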
